A study of Danio rerio with 8 samples.

Results

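The genes described here encode the mitochondrial respiratory chain and the ATP synthase, from both the nuclear and the mitochondrial genome. They were taken by symbol, as the genes whose names start with nduf, sdha to sdhd, uqcr, cox4 to cox8, atp5, mt-nd, mt-co, mt-cyb or mt-atp, and cyc1. The rule used no measured value, and it found 116 of the 32520 genes in the table, 103 of them nuclear and 13 in the mitochondrial genome. Symbols that start with ndufaf or sdhaf name assembly factors, which help to build a complex and are not subunits of it, and atp5if1a and atp5if1b name inhibitors of the ATP synthase.

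RNA was sequenced from whole zebrafish embryos of the AB strain, yolk included, in 4 KT09 pools and 4 control pools. KT09 is an ethanolic extract of the stems of Mahonia bealei, a medicinal shrub, and was given at 100 µg/ml from 2 hours post fertilization (hpf). Control embryos received 0.5% DMSO, the solvent. Embryos were kept in E3 medium, 25 in a well, and pools of 75 were collected at 8 hpf according to the labels, which call the tissue whole larvae although this age falls within gastrulation. The study's own text also names a later hour for the collection. The comparison asks how the extract altered the transcript levels of these genes, and each pool mixes all cell types of the embryo. The study's methods say that experiments were repeated on different clutches, and the labels tie no pool to a clutch. The library names of replicate 4 carry the style of the opposite group in both groups, while the titles and the treatment field do not. The group means used here were formed by the authors. Which replicate 4 library entered which mean could not be checked.

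Reads per gene were scaled by the authors with DESeq2 size factors and averaged over the 4 pools of a group. These averages are the authors' means and are called mean levels. They carry no spread between pools, so no test could be run, and "higher" and "lower" compare mean levels only. The 95% intervals cover counting error alone and would be wider with the spread between pools. Transcript lengths were not used, so mean levels are compared between KT09 and control, and a higher one of 2 genes may only reflect a longer transcript. Ratios were read for the 104 genes with a mean over all pools of at least 10, 91 nuclear and 13 mitochondrial, and the 12 scarcer genes are named with their mean levels only. Sums of mean levels cover all genes of a group or list, scarce ones included. In whole embryos, fewer cells of a type and less RNA per cell cannot be told apart.

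The respiratory chain passes electrons from NADH and succinate to oxygen. Complexes I, III and IV pump protons across the inner mitochondrial membrane as they do so, while complex II feeds electrons in without pumping, and complex V, the ATP synthase, uses the proton gradient to make ATP. All subunits of complex II are nuclear, whereas complexes I, III, IV and V join subunits of both genomes. The early fish embryo works with mitochondria, mitochondrial DNA and many mRNAs that it received from the egg.

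Relative library depth, read off the smallest steps of the mean levels, ranged from 0.980 to 1.16 in KT09 pools and from 0.820 to 1.14 in control pools, and the mean levels of all genes summed to 1.69e+07 in KT09 and 1.62e+07 in control. Among the 15888 genes with a mean of at least 10, the median log2 ratio of KT09 over control was 0.01, with quartiles at -0.36 and 0.34. Markers of stage, maternal supply and cell types also differed between the groups, and their part in the results below was not tested. Of 16 gastrula markers, 13 were higher and 3 lower in KT09, with sums of 66030 and 47886 in KT09 and control. All 8 germ plasm markers with a mean of at least 10 were higher, with sums of 3604 and 1705. Of 13 egg coat and oocyte markers 12 were higher, and the lower one was ybx1, which dominates their sums of 66824 in KT09 and 73799 in control. Markers of the enveloping layer were close in sum (253070 in KT09, 251248 in control), with 7 of 13 higher and 6 lower in KT09. Of 14 markers of the yolk and its syncytial layer, 6 were higher and 8 lower, with sums of 127289 in KT09 and 134383 in control that apoeb dominates. The apolipoprotein apoc1 (-1.13) and the lipid transfer gene mttp (0.79) lay far apart among them. No list had its markers at 0 throughout. One marker, the oocyte gene cyp19a1a, was at 0 in control.

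Respiratory chain genes were shifted together toward lower mean levels in KT09, by a small amount. Of the 104 genes read, 82 were lower and 22 higher in KT09, so 78.8% were lower, against 49.6% of all genes with a mean of at least 10. Among genes with a mean of at least 100, 73 of 94 members (77.7%) were lower, against 48% of all such genes. Their median log2 ratio was -0.28, with quartiles at -0.48 and -0.02. The difference lay beyond the counting interval on the lower side in 70 members (67.3%, against 37.2% of all genes) and on the higher side in 15 (14.4%, against 38.3%), and the other 19 were within it.

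The shift was one of many small differences and not of large ones. With a log2 ratio beyond 0.32 in size, the smallest of the thresholds tried, 45 members (43.3%) were lower and 2 (1.92%) higher, against 26.7% and 25.9% of all genes. At 1.5-fold, 17 members (16.3%) were lower, which is near the 15.5% of all genes, whereas 1 (0.962%) was higher, against 14.1%. At 2-fold, 1 member (0.962%) was lower and 0 were higher, against 6.9% and 6.16% of all genes. The plot of mean levels shows this as a band of points just under the line of equality.

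**Figure D1:**
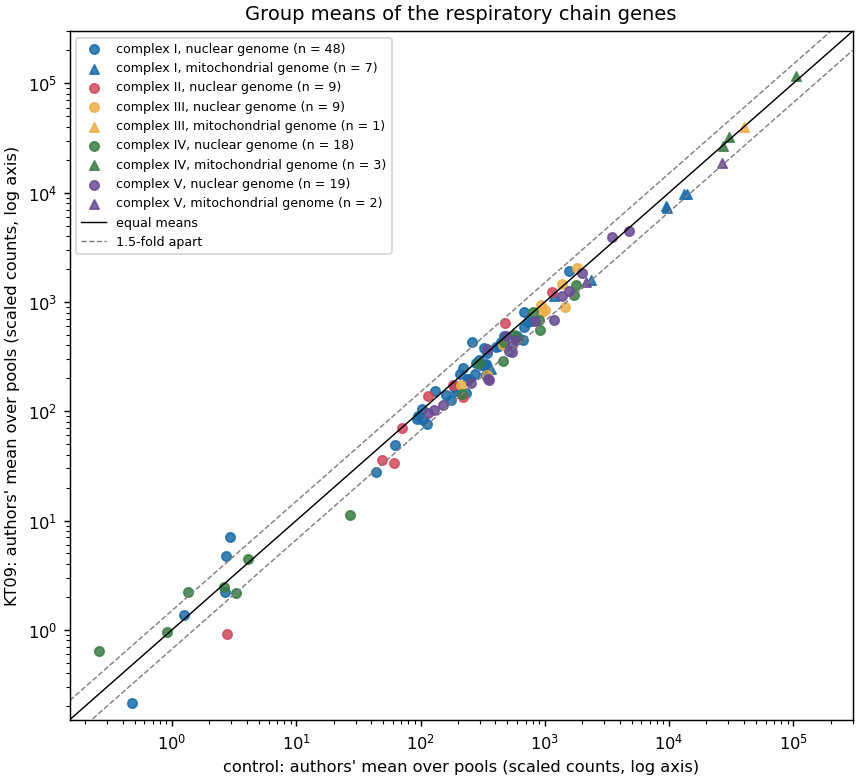
Mean level of each respiratory chain gene in KT09 (vertical) against control (horizontal), in counts divided by size factors on log axes, coloured by complex, with triangles for genes of the mitochondrial genome and the line of equality drawn. Of the 104 genes with a mean of at least 10, 82 lie under the line.

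Complex I, the NADH dehydrogenase, is the largest complex of the chain. Of its 50 genes read, 41 were lower and 9 higher in KT09, with a median log2 ratio of -0.25. The 7 mitochondrial subunits were all lower, with a median of -0.44, and of the 43 nuclear genes 34 were lower and 9 higher, with a median of -0.19. Summed mean levels of the nuclear genes were 13739 in KT09 and 14792 in control.

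The nuclear core subunits of complex I carry the flavin and the iron-sulfur clusters. Of the 7 read, 6 were lower. The largest downward difference was that of ndufs7, an iron-sulfur subunit next to the quinone site, with 272 in KT09 and 339 in control (log2 ratio -0.32). Next to it stood ndufs1, the largest subunit of the peripheral arm, with 493 and 602 (-0.29). The flavin-binding subunit ndufv1 had 385 in KT09 and 405 in control, and its interval included no difference. The exception in direction was ndufs3, with 251 in KT09 and 220 in control (0.19).

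Accessory subunits surround this core. Of the 29 read, 23 were lower and 6 higher, with a median of -0.20. The ndufb subunits, all of the membrane arm, were lower in 9 of 10 cases, with a median of -0.36. Of the 10, 8 were lower beyond counting error, against 37.2% of all genes. Among them ndufb5 had 215 in KT09 and 336 in control (-0.64), ndufb10 had 76.3 and 113 (-0.56), and ndufb6 was the one with a higher mean level, at 220 and 209, within counting error. Of the 12 numbered ndufa genes read, 9 were lower, with a median of -0.13. The lowest ratio of these was that of ndufa1, a small membrane subunit whose loss impairs complex I assembly in mammals, with 213 in KT09 and 334 in control (-0.65, 95% counting interval -0.77 to -0.53).

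The gene that went furthest the other way was ndufa9a. It encodes a subunit at the joint of the peripheral and membrane arms, and it had 431 in KT09 and 257 in control, a log2 ratio of 0.74 with a counting interval of 0.63 to 0.85. It was the one member of all 104 that was higher by 1.5-fold. The next highest of complex I was ndufa4l, whose product is counted with complex IV in mammals, with 1911 and 1577 (0.28). It is counted with complex I here by its symbol. The third was the assembly factor ndufaf7, a methyltransferase, with 154 and 130 (0.25).

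Assembly factors of complex I were mixed. Of 7, 5 were lower and 2 higher, with a median of -0.18. The lowest ratio among all complex I genes belonged to ndufaf1, a chaperone of the membrane arm, with 145 in KT09 and 231 in control (-0.67). Another assembly factor, ndufaf6, stood at 27.8 and 43.7 (-0.65), with a wide counting interval of -0.99 to -0.31. On the higher side, ndufaf3, which assists the quinone-binding module in human cells, had 377 in KT09 and 323 in control (0.22).

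**Figure D2:**
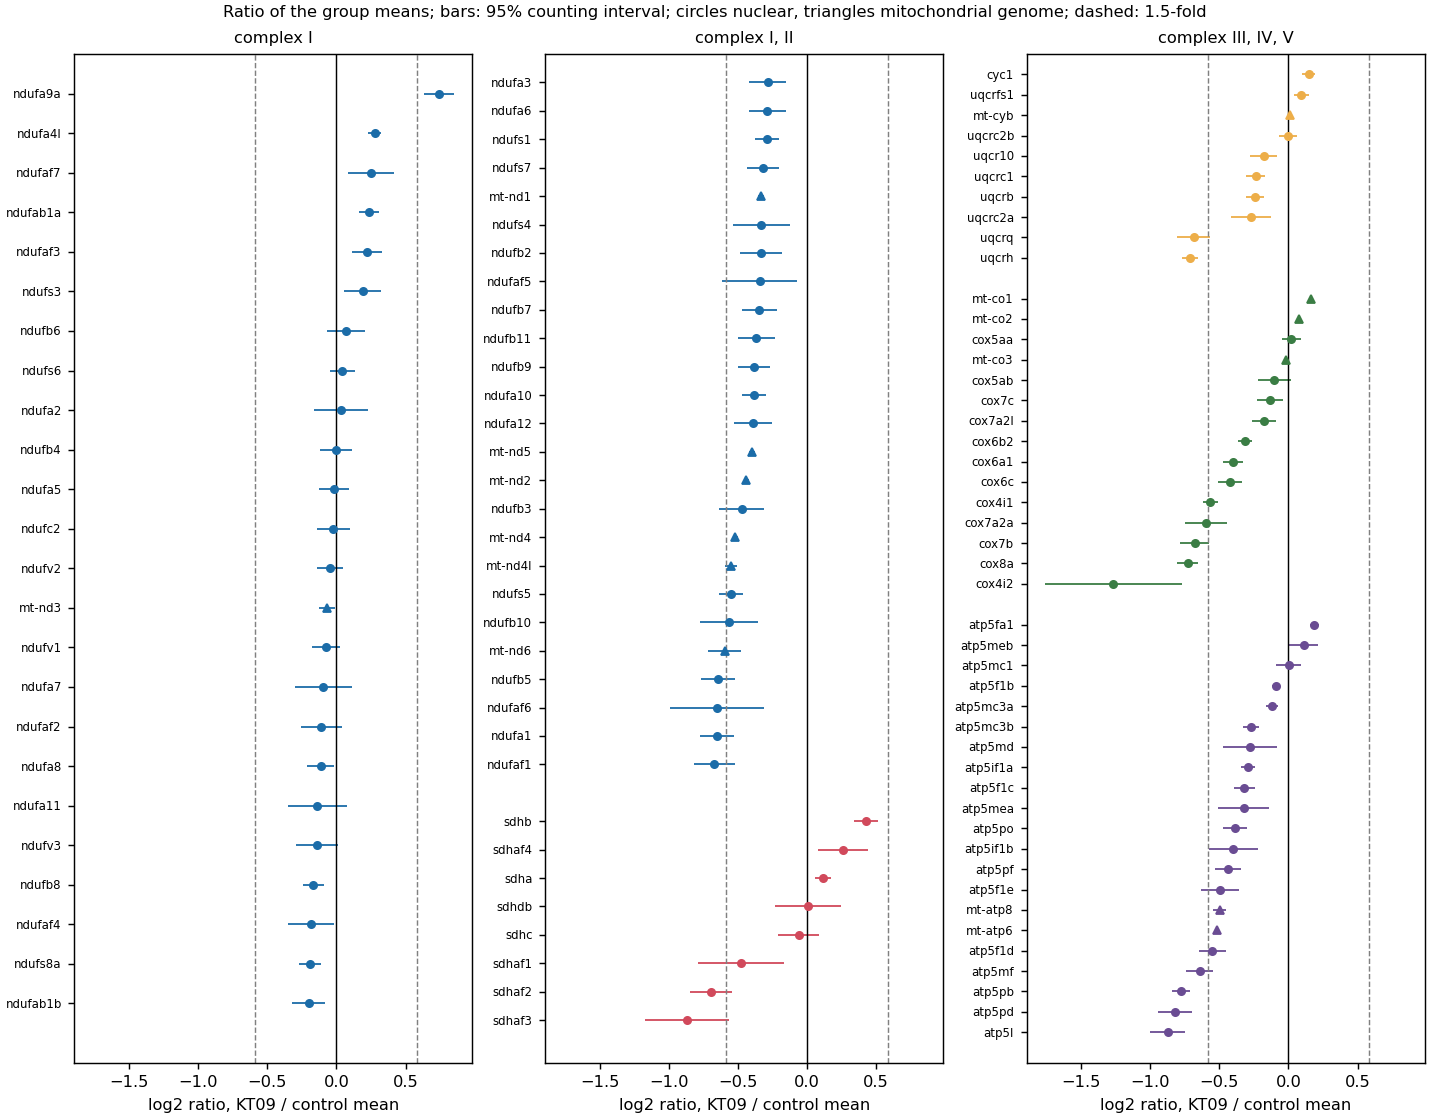
Log2 ratio of the KT09 mean level to the control mean level for the respiratory chain genes with a mean of at least 10 that are reported singly, by complex, with 95% counting intervals. Most points of complexes I, IV and V lie left of 0, and ndufa9a at 0.74 is the highest.

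Complex II, succinate dehydrogenase, is also an enzyme of the tricarboxylic acid (TCA) cycle. Of its 8 genes read, 4 were lower and 4 higher in KT09, with a median log2 ratio of -0.03 and sums of 2460 in KT09 and 2315 in control. The sign of this median turned with a minimum mean of 100 (0.11) and with structural subunits alone (0.060). Both catalytic subunits were higher, and 3 of 4 assembly factors lower. The flavoprotein sdha, the highest mean level of the complex, had 1235 in KT09 and 1142 in control (0.11). The iron-sulfur subunit sdhb had 638 and 474 (0.43, counting interval 0.34 to 0.51), the second highest ratio of all members. The membrane anchors sdhc (174 in KT09, 181 in control) and sdhdb (70.7 and 70.3) were within counting error.

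The 4 assembly factors of complex II had a median of -0.58. In yeast and human cells sdhaf1 and sdhaf3 help to insert the iron-sulfur clusters of Sdhb, and sdhaf2 attaches the flavin to Sdha. The gene sdhaf3 had 33.6 in KT09 and 61.4 in control (-0.87), sdhaf2 had 136 and 220 (-0.69), and sdhaf1 had 35.4 and 49.3 (-0.48). The fourth, sdhaf4, which binds Sdha before it joins Sdhb, had 136 in KT09 and 114 in control (0.26).

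Complex III, the cytochrome bc1 complex, passes electrons from ubiquinol to cytochrome c. Of its 10 genes, 7 were lower and 3 higher in KT09, with a median of -0.21. Here too the direction differed with the role of the subunit. The electron-carrying subunits were equal or higher: cyc1, which is cytochrome c1, had 2027 in KT09 and 1833 in control (0.15), and the Rieske protein uqcrfs1 had 1465 and 1374 (0.09). The mitochondrial cytochrome b gene mt-cyb had 40003 and 39769 (0.01, counting interval -0.0015 to 0.018), a sign that turned at both other scalings tried.

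The 7 other nuclear genes of complex III were all lower, 6 of them beyond counting error (37.2% of all genes were), with a median of -0.24. They are counted as accessory here, the uqcrc core proteins among them. The hinge protein uqcrh, which helps cytochrome c1 to dock cytochrome c, had 895 in KT09 and 1466 in control (-0.71). The small membrane subunit uqcrq had 214 and 344 (-0.69), and these were the members of the complex past 1.5-fold. The lowest ratio after them was that of uqcrc2a, a core protein of the matrix side, with 175 and 211 (-0.27). Its paralog uqcrc2b stood at 938 in KT09 and 940 in control, within counting error.

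Complex IV, cytochrome c oxidase, reduces oxygen with a mitochondrial core of 3 subunits and a shell of nuclear ones. Of its 15 genes read, 12 were lower and 3 higher, with a median of -0.31. The nuclear shell was lower in 11 of 12 genes, with a median of -0.41 and sums of 6776 in KT09 and 8797 in control. The mitochondrial core was not: mt-co1, mt-co2 and mt-co3 summed to 176327 in KT09 and 162692 in control, with a median of 0.08.

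Of the 12 nuclear subunits of complex IV read, 4 were lower by 1.5-fold, against 15.5% of all genes. The lowest ratio of all members was that of cox4i2, the isoform of subunit 4 linked to low oxygen in mammals, with 11.2 in KT09 and 27.1 in control (-1.27). It was scarce, with a counting interval of -1.76 to -0.77, and was the one member past 2-fold. Better measured was cox8a, a small subunit that crosses the membrane, with 554 and 918 (-0.73, interval -0.80 to -0.65). The remaining pair were cox7b, with 290 and 464 (-0.68), and cox7a2a, with 143 and 217 (-0.60). The main subunit 4 gene, cox4i1, had 1164 and 1721 (-0.56), and the nuclear subunit with the one higher mean level, cox5aa, had 816 and 804, within counting error and with a sign that turned when each group was divided by its summed means.

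Complex V, the ATP synthase, had 21 genes, of which 18 were lower and 3 higher in KT09, with a median of -0.38. Its nuclear genes summed to 17292 in KT09 and 19510 in control, and its mitochondrial genes to 20182 and 28790. The difference varied along the enzyme. In the F1 head, where ATP is made, the catalytic pair differed in opposite directions, both beyond counting error. The beta subunit atp5f1b, the highest nuclear mean level of the complex, had 4450 in KT09 and 4732 in control (-0.09), and the alpha subunit atp5fa1 had 3946 and 3469 (0.19). The subunits of the central stalk were lower, with atp5f1c at 664 and 828 (-0.32), atp5f1d at 352 and 516 (-0.55) and atp5f1e at 180 and 254 (-0.50).

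The peripheral stalk, which holds the head still against the rotor, was lower in all 4 genes, with a median of -0.61 and sums of 1742 in KT09 and 2666 in control. In it atp5pd had 198 in KT09 and 350 in control (-0.82), and atp5pb, the subunit b that spans the stalk, had 686 and 1177 (-0.78, interval -0.85 to -0.71). The small subunits of the membrane part included atp5l, subunit g, with 194 and 355 (-0.87), the lowest ratio of complex V, and atp5mf, subunit f, with 348 and 542 (-0.64). The 3 genes of the rotating c ring had a median of -0.12. Of these atp5mc3b had 1136 in KT09 and 1371 in control (-0.27), atp5mc3a had 1842 and 1999 (-0.12), and atp5mc1 had 485 and 484, within counting error and with a sign that turned at both other scalings. Both inhibitors were lower, atp5if1a at 1268 and 1553 (-0.29) and atp5if1b at 114 and 150 (-0.40).

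Counted as catalytic or core were the core subunits of complex I, sdha, sdhb, cyc1, uqcrfs1 and the head and central stalk genes of complex V. All other nuclear subunits were counted as accessory, including the uqcrc core proteins, the c ring and the membrane anchors of complex II. Across complexes I to V, the 16 nuclear catalytic or core genes read had a median log2 ratio of -0.08, with 10 lower and 6 higher. Sums over all 17 were 18054 in KT09 and 18089 in control. Their largest terms were atp5f1b, which was lower in KT09, and atp5fa1, which was higher. The 62 nuclear accessory genes read had a median of -0.28, with 52 lower and 10 higher. Sums over all 73 were 27201 in KT09 and 32630 in control. Of the 17 genes lower by 1.5-fold, 12 were among the 62 nuclear accessory subunits read and 4 among the 11 assembly factors. The 13 mitochondrial genes held 1, and the 16 nuclear catalytic or core genes held 0. These counts follow in part from the unequal sizes of the classes, and 15.5% of all genes were lower by 1.5-fold. The 11 assembly factors had a median of -0.34, with 8 lower and 3 higher, and the median was -0.11 with a minimum mean of 100. By level, the 12 nuclear genes with a mean of 1000 or more had a median of -0.10, and the 79 below that had -0.29. No difference between these groups of genes was tested.

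The mitochondrial genome is transcribed from both strands as long RNAs that are then divided into single mRNAs at the tRNAs between them, apart from a few genes that share a joint mRNA. Of its 13 protein genes, 10 were lower and 3 higher in KT09, with a median of -0.40 and a range of -0.60 to 0.16. They summed to 273732 in KT09 and 281327 in control, a log2 ratio of -0.04, since the 3 higher genes were those with the highest mean levels.

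The 13 genes are given here as a lower and a level set, formed after their values were seen. The lower set held 8 genes, whose ratios ran from -0.60 to -0.33 and which summed to 56274 in KT09 and 77685 in control. In it mt-nd1 had 7552 in KT09 and 9506 in control (-0.33), mt-nd2 9692 and 13129 (-0.44), mt-nd4 9739 and 13962 (-0.52), and mt-nd5 7271 and 9594 (-0.40). All 4 encode proton-pumping or quinone-site membrane subunits of complex I. The short gene mt-nd4l had 1596 and 2335 (-0.55), and mt-nd6, the one protein gene on the opposite strand, had 244 and 369 (-0.60, interval -0.71 to -0.48). Both mitochondrial subunits of the ATP synthase belonged here, the proton channel gene mt-atp6 with 18671 and 26659 (-0.51) and mt-atp8 with 1510 and 2130 (-0.50).

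The level set held 5 genes, which summed to 217458 in KT09 and 203642 in control. It is called level only because its ratios, from -0.07 to 0.16, were small. By counting error 2 of its genes were lower, 2 were higher and 1 was within it. The catalytic oxidase subunit mt-co1 had 117287 in KT09 and 104949 in control (0.16), and mt-co2, which receives electrons from cytochrome c, had 32178 and 30514 (0.08). When each group was divided by its summed means, every log2 ratio was 0.07 lower, which left mt-co1 at 0.095 and mt-co2 at 0.011. The others were mt-co3, with 26862 and 27228 (-0.02), mt-nd3, with 1128 and 1182 (-0.07), and mt-cyb, given above. The gene mt-co1 made up 42.8% of the summed mitochondrial mean levels in KT09 and 37.3% in control.

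Neighbours in the genome did not always share a ratio. In gene order, mt-atp8 and mt-atp6 (-0.50 and -0.51) lie between mt-co2 (0.08) and mt-co3 (-0.02), and mt-nd3 (-0.07) lies beside mt-nd4l and mt-nd4 (-0.55 and -0.52). The genes mt-atp8, mt-atp6 and mt-co3 overlap in sequence, as do mt-nd4l and mt-nd4, so reads in the shared bases could have gone to either gene. The genes mt-nd5 and mt-nd6 overlap on opposite strands, which a stranded library tells apart where the counting uses strand. The libraries were made by an mRNA kit. A search for 25 symbols of mitochondrial rRNAs, tRNAs and the control region found 0 of them, and rows under other names were not looked for. The remaining transcripts of the same precursors were therefore not analysed here.

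**Figure D3:**
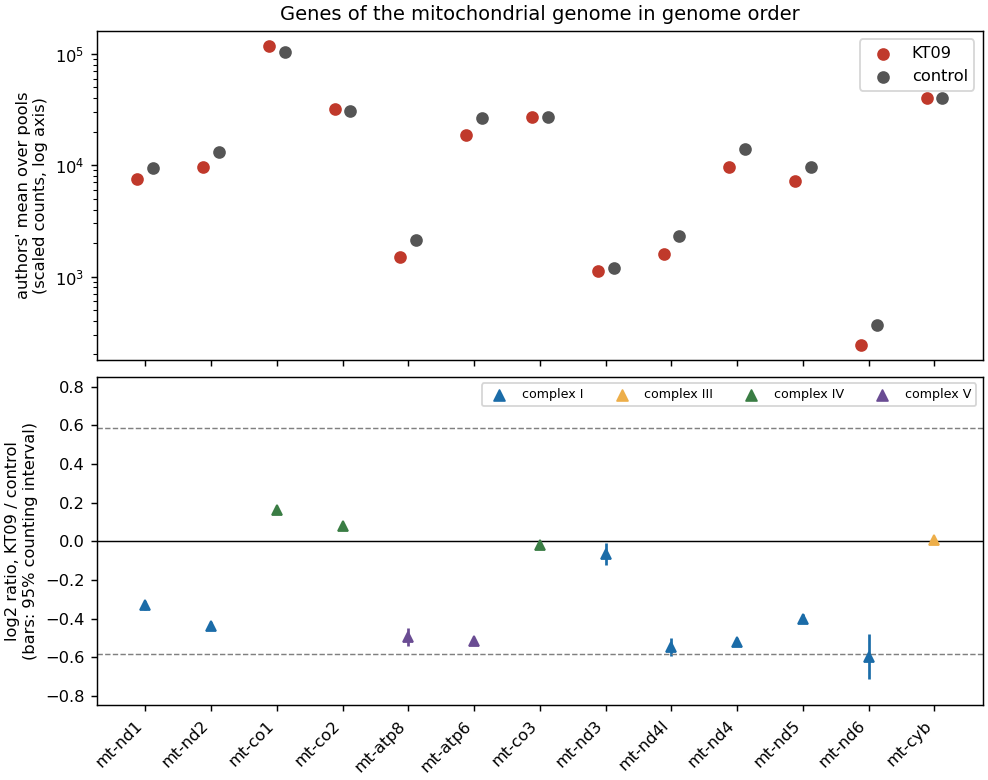
Log2 ratio of KT09 to control mean level for the 13 protein genes of the mitochondrial genome, in gene order, with 95% counting intervals. The mt-nd genes other than mt-nd3, and both mt-atp genes, lie at -0.33 or lower, while mt-co1 is highest at 0.16.

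Nuclear and mitochondrial genes of a complex therefore did not share 1 ratio. The nuclear genes here include the assembly factors and inhibitors. In complex IV the nuclear genes had a median of -0.41 and the mitochondrial ones 0.08. In complex III the nuclear median was -0.24, and the 1 mitochondrial gene, mt-cyb, had 0.01. In complex I the order was the other way round, -0.19 for nuclear and -0.44 for mitochondrial genes, and in complex V the medians were -0.32 and -0.50. All 103 nuclear genes together took 0.284% of the summed mean levels of the table in KT09 and 0.334% in control, and the 13 mitochondrial genes 1.62% and 1.74%.

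**Figure D4:**
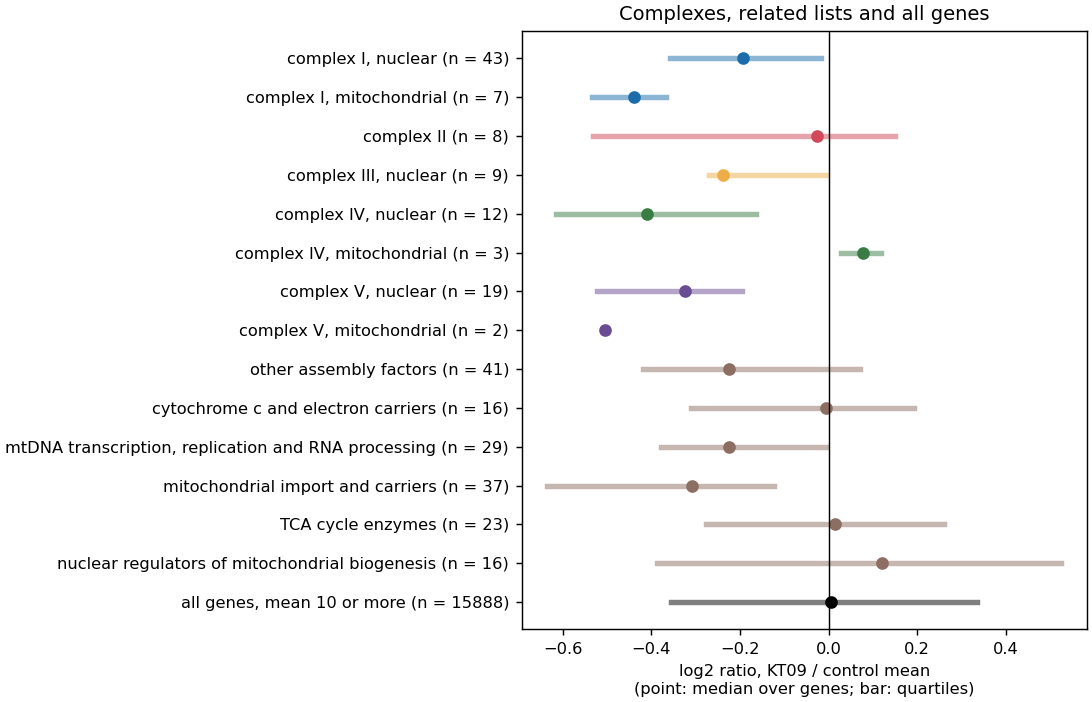
Median log2 ratio of KT09 to control mean level, with bars from the lower to the upper quartile, for nuclear and mitochondrial genes of each complex, related gene lists and all genes with a mean of at least 10. Nuclear complex IV lies at -0.41 and mitochondrial complex IV at 0.08, against 0.01 for all genes.

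Many nuclear subunits exist as paralogs, some of them used in particular tissues of mammals, and 15 such sets were compared. In most sets 1 paralog held nearly all of the summed mean level in both groups, such as ndufa9a (98.9% in KT09, 99.0% in control) over ndufa9b. The scarce isoforms that mark heart and skeletal muscle in mammals were near the floor, with cox7a1 at 2.18 in KT09 and 3.24 in control, cox6a2 at 0.644 and 0.259, and cox8b at 0.954 and 0.911.

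In a few sets the share moved between paralogs. The mitochondrial acyl carrier protein is encoded by ndufab1a, with 807 in KT09 and 684 in control (0.24), and ndufab1b, with 268 and 308 (-0.20), so ndufab1a made up 75.1% of the pair in KT09 and 69.0% in control. Subunit e of the ATP synthase is encoded by atp5meb, with 372 and 345 (0.11), and atp5mea, with 103 and 129 (-0.32), and the share of atp5meb was 78.2% and 72.7%. In the subunit 7a set, cox7a2l, a factor that joins complexes III and IV into supercomplexes in mammals, had 497 in KT09 and 561 in control (-0.18), and held 77.3% and 71.8% of the set, or 67.3% and 63.9% with the COX7A2 row that the symbol rule left out. Within subunit 4, cox4i2 made up 0.955% in KT09 and 1.55% in control. Near-identical paralogs can exchange reads, and how far the counting separated these pairs was not tested.

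**Figure D5:**
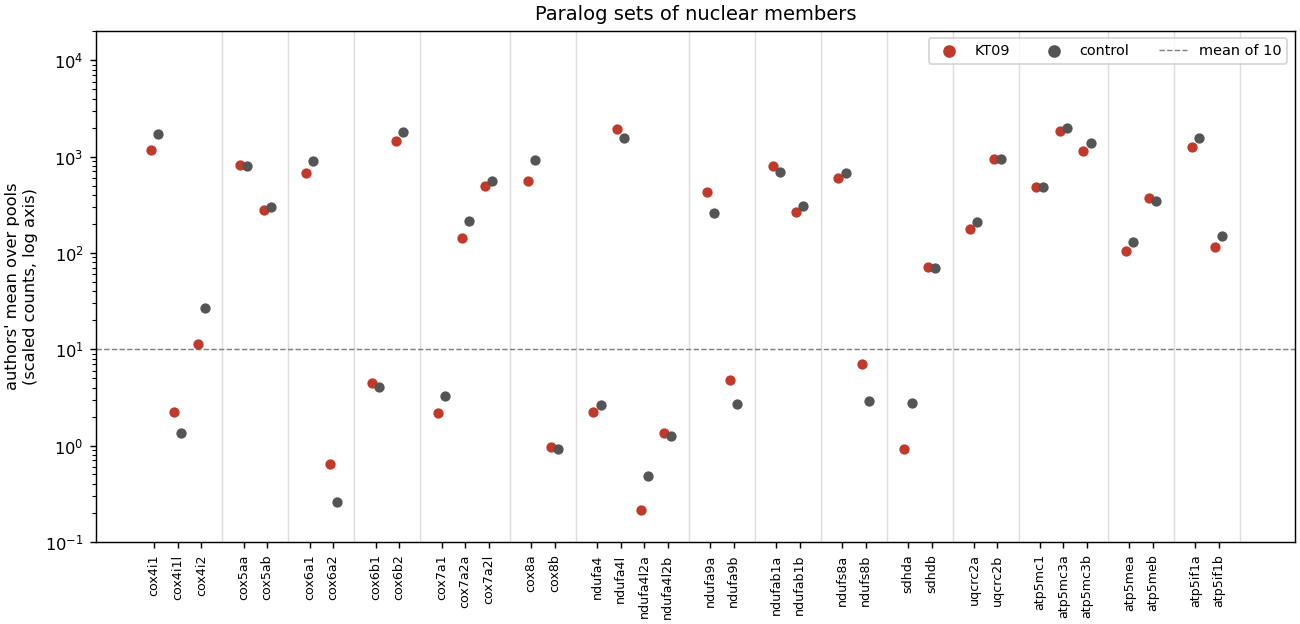
Mean level of each paralog in KT09 and control, on a log axis and grouped by set, with a dashed line at a mean of 10. Computed from these mean levels, the share of ndufab1a in its set is 75.1% in KT09 and 69.0% in control. That of atp5meb is 78.2% and 72.7%.

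Besides those named, the members with a mean under 10 were ndufa4 (2.21 in KT09, 2.65 in control), ndufa4l2a (0.215, 0.477), ndufa4l2b (1.35, 1.3), ndufa9b (4.78, 2.71), ndufs8b (7.00, 2.91), sdhda (0.913, 2.76), cox4i1l (2.24, 1.35), cox5b2 (2.44, 2.62) and cox6b1 (4.44, 4.08). They amount to a few reads per pool, and no ratio was read for them. Symbols in capitals fell outside the rule. Among them COX5B, the main subunit 5b gene by level, had 1119 in KT09 and 1303 in control (-0.22), NDUFB1 had 21.9 and 29.7 (-0.44), and COX7A2 had 95.4 and 96.9 (-0.02).

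Other genes of the pathway were read from lists of textbook members, each counted by mean level as above. Of all genes with a mean of at least 10, 49.6% were lower in KT09. By 1.5-fold, 15.5% of all genes were lower and 14.1% higher, and the list counts are to be read beside these shares. Of 41 further assembly factors read, 26 were lower and 15 higher, with a median of -0.22. By 1.5-fold 6 were lower, near the share of all genes, and 1 was higher. Among them ttc19, a complex III factor, had 48.5 in KT09 and 114 in control (-1.23), bcs1l, which inserts the Rieske protein, had 39.7 and 63.8 (-0.68), and cox18, which moves part of Mt-co2 across the membrane, had 73.4 and 42.0 (0.80). The 16 genes of cytochrome c, coenzyme Q and other electron carriers were evenly divided, 8 lower and 8 higher, with a median of -0.01. The main cytochrome c gene cycsb had 3709 in KT09 and 4941 in control (-0.41), while cycsa was at 0 in both. A subunit of the enzyme that makes the coenzyme Q tail, pdss1, had 76.7 and 158 (-1.04). On the higher side, coq10b had 2476 in KT09 and 1766 in control (0.49), and coq3 had 75.3 and 47.9 (0.65). By 1.5-fold 2 of these 16 genes were lower and 1 was higher.

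Of 29 genes of mitochondrial DNA transcription, replication and RNA processing, 23 were lower and 6 higher, with a median of -0.22, and 7 were lower and 1 higher by 1.5-fold. The polymerase polrmt had a ratio of -0.13. Its partner tfam, which packages mitochondrial DNA and starts transcription, had 291 in KT09 and 460 in control (-0.66), and slirp, which with Lrpprc stabilizes mitochondrial mRNAs in mammals, had 211 and 350 (-0.73). Subunits of the enzyme that cuts tRNAs from the precursor differed among themselves, with trmt10c at 156 and 284 (-0.87), prorp at 47.5 and 73.6 (-0.63) and hsd17b10 at 558 and 312 (0.84).

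Of 37 genes of protein import, carriers and pores, 32 were lower and 5 higher, with a median of -0.31, and 12 were lower and 1 higher by 1.5-fold. The matrix chaperonin partner hspe1 had 666 in KT09 and 1737 in control (-1.38). The small chaperones of the intermembrane space timm8a, with 82.5 and 161 (-0.97), and timm10, with 382 and 702 (-0.88), were lower too. The ADP/ATP carrier slc25a5 had 25463 in KT09 and 27747 in control (-0.12), and timm29, part of the carrier translocase in human cells, had 173 and 107 (0.70).

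The 23 TCA cycle and pyruvate enzymes read were level as a list, with 11 lower and 12 higher and a median of 0.02. By 1.5-fold 2 were lower and 3 higher, the higher ones including suclg2, with 608 in KT09 and 321 in control (0.92). The list also holds aco1 (0.15) and mdh1aa (0.75), whose enzymes are cytosolic, and mdh1aa is among the 3 higher. The counts and median without them were not computed. Of 16 transcriptional regulators of mitochondrial biogenesis, 8 were lower and 8 higher, with a median of 0.12, and 4 passed 1.5-fold in each direction. The higher ones included nrf1, with 2688 in KT09 and 1668 in control (0.69), and gabpa, with 4321 and 2416 (0.84), both known in mammals as activators of respiratory chain genes. The lower ones included the receptor esrra, with 132 and 403 (-1.61), and its coactivator ppargc1a, with 27.2 and 63.6 (-1.23).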

How the data were processed

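The authors made stranded mRNA libraries from 4 KT09 and 4 control pools, sequenced them over 100 bp, used the nf-core rnaseq pipeline to count reads against GRCz11 and its Ensembl annotation, and ran DESeq2, whose version is not given in the sources used here. The deposited table holds signal values, which are read counts that the authors scaled by size factors and averaged over the pools of a group. It also holds the authors' own comparison (log2 fold change, standard error, Wald statistic, p-value and adjusted p-value), which was not used. No values per pool were used, and no counts were rebuilt, so no test across pools could be run.

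The ratio of the KT09 to the control mean was computed for each gene. Its counting error came from the value of 1 read in each library, read off the smallest steps of the means. Such errors cover counting only. Ratios were read at a mean over all pools of at least 10, and counted past a log2 ratio of 0.32, past 1.5-fold and past 2-fold, beside the same share of all genes. All 116 genes had a row and a symbol of their own, and 115 had a symbol in the reference tables, the same for 99.

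Members and lists were chosen with earlier results of these data known. Named are all mitochondrial members; those past 1.5-fold; in each complex the 3 highest and 3 lowest ratios and the highest mean; and paralogs of members past 1.5-fold. Other genes were named after their values were seen. A gene that is counted but not named or drawn singly is not reported here. The symbol dld was left out of the TCA list because in zebrafish it names a Notch ligand. Alternatives were the scaling, the minimum mean, the fold, a pseudocount of 1, structural subunits alone and the members included. The value of 1 read and the counting interval were checked on simulated counts without spread between pools, and no other result was simulated. Python 3.11.15, pandas 2.3.3, numpy 2.4.6 and matplotlib 3.10.9 were used.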

Additional observations from a re-analysis of the deposited data

How the results depend on the processing

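The complex II median (-0.03 as reported) was 0.11 with a minimum mean of 100 and 0.060 with structural subunits alone, and no other median or ratio of sums given here for a complex or genome changed sign under an alternative. Dividing each group by its summed means shifted all log2 ratios down by 0.07: the complex III median became -0.28 (from -0.21 as reported), the mitochondrial median -0.47 (-0.40), the log2 ratio of nuclear sums -0.23 (-0.17) and that of mitochondrial sums -0.11 (-0.04). With this scaling 23 members were lower by 1.5-fold (17 as reported), and the matching share of all genes was not computed. Centring on the median of genes with a mean of at least 100, a shift of 0.02, gave a mitochondrial median of -0.42 and ratios of sums of -0.19 for nuclear and -0.060 for mitochondrial genes. With no minimum mean, 5 members were higher by 1.5-fold and the complex IV median was -0.13, since scarce genes entered. With a minimum of 100 the assembly factor median was -0.11 (-0.34), since the scarcest left. Past a log2 ratio of 0.32, 45 were lower and 2 higher, and at 2-fold 1 was lower and 0 higher. Adding the 3 symbols in capitals, chosen after seeing the data, gave a complex IV median of -0.22 (-0.31), and leaving out the ndufa4 family, also chosen then, a nuclear ratio of sums of -0.18. Of 104 single ratios, 6 changed sign when divided by summed means: mt-cyb (-0.06), atp5mc1 (-0.06), cox5aa (-0.05), ndufa2 (-0.03), ndufs6 (-0.02) and sdhdb (-0.06). With centring 3 did: mt-cyb (-0.01), atp5mc1 (-0.02) and sdhdb (-0.01). None of the 18 members past 1.5-fold did. No paired analysis was possible because the table gives means over each group and no values per pool, and for the same reason leaving out single pools was not run. Depth limits the scarce genes most: the interval of cox4i2 spans -1.76 to -0.77, that of mt-co1 0.15 to 0.17.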
